A study of Homo sapiens with 8 samples.

Results

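H3K4me3 was examined at the promoters of 9 genes of the MHC class I system in human U2OS osteosarcoma cells: HLA-B, HLA-C, HLA-E, HLA-F, HLA-G, B2M, NLRC5, MICA and MICB. They were chosen by name, as the class I counterpart of the genes under the control of CIITA, and not by a cut-off on a measured value. Earlier results of these data were known at that time. H3K4me3 is the trimethylation of lysine 4 on histone H3, which marks active promoters. For each gene its peaks were read within 3 kb on either side of the 5′ end of its MANE Select transcript in GENCODE. These 9 are among 20033 protein-coding promoters, and 7 of the 9 carried a peak in at least 1 library.

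The study asked how ZBTB48, a transcription factor with zinc fingers that also binds telomeric DNA, contributes to the interferon response of CIITA. H3K4me3 ChIP-seq was carried out on 3 wild-type (WT) and 3 ZBTB48 knockout (KO) libraries of U2OS cells, each from a separate clone, and all 6 had received interferon gamma (IFNγ) at 250 U/ml for 24 h. As every library was treated, each comparison is between genotypes under IFNγ and none shows induction. The other 2 samples are WT inputs, which were not used here. A clone carries its own history besides its genotype. The p-values here set the group difference against the spread between libraries, which takes in the clones and the differences between lists described below.

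MHC class I molecules display peptides from inside the cell to CD8 T cells. Each consists of a heavy chain, encoded by an HLA gene, and the light chain β2-microglobulin, encoded by B2M. NLRC5 is the transactivator of these genes and is itself induced by IFNγ. It is a relative of CIITA, which serves the class II genes, and both act through RFX, CREB/ATF and NF-Y factors that bind a conserved promoter module. MICA and MICB are class I-like stress ligands of the NK cell receptor NKG2D and do not need β2-microglobulin.

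The lists fell into different kinds, which touches every value below. WT replicates 1 and 2 had a median peak width of 2297 and 2353 bp and a median fold enrichment of 13.4 and 14. The other 4 lists, WT replicate 3 and the 3 KO libraries, had median widths between 1275 and 1487 bp and median enrichments between 4.19 and 4.65. WT replicate 3 is therefore also set on its own beside the 3 KO libraries, 1 library with 3, which allows no test. In a population of cells, fewer marked cells and less mark per cell cannot be told apart. The lists hold no read counts. The study's methods give a range of sequenced reads per sample, but the depth of each list and the reads kept after filtering are unknown here. The edited gene ZBTB48 itself carried a peak in all 6 libraries, which does not check the knockout, since an edited promoter can keep the mark. Of 8 genes of mesenchymal and bone cells 4 were marked in all 6 libraries (RUNX2, COL1A1, SPARC and VIM) and 4 in none (COL1A2, TWIST1, ALPL and BGLAP), whereas 8 of 8 immune genes, among them PTPRC and CD14, were marked in none.

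The upstream sequences of 7 of these genes can be read directly. Whether their letters bear on the marking was not tested. The 250 bases upstream of the RefSeq start (GRCh38.p14), which fell on the MANE Select 5′ end in all 7 genes listed, are shown for 5 genes of the class I complex, 4 of them marked and HLA-G not, and for the pair MICA and MICB, of which the former was marked and the latter not. Capitals mark TGACG (the core of a CREB/ATF site), CCAAT or its complement ATTGG (the core of an NF-Y site), and GAAANNGAA or GAANNGAAA on either strand (the repeat of an interferon-response element).
HLA-B, chr6:31357180-31357429, minus strand: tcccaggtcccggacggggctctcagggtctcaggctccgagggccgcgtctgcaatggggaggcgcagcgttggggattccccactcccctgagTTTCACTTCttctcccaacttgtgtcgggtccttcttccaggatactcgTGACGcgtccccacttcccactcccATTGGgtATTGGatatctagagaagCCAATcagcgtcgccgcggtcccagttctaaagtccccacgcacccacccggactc
HLA-C, chr6:31272093-31272342, minus strand: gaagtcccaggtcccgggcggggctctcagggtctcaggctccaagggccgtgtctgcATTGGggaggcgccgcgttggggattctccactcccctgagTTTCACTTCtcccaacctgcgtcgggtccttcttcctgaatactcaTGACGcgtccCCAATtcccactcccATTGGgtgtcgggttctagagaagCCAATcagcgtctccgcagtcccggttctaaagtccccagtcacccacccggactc
HLA-F, chr6:29723184-29723433, plus strand: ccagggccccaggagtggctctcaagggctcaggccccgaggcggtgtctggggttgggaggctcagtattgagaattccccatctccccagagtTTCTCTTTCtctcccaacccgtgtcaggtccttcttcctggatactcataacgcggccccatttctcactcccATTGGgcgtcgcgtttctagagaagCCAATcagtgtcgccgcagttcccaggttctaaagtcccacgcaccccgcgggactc
HLA-G, chr6:29827575-29827824, plus strand: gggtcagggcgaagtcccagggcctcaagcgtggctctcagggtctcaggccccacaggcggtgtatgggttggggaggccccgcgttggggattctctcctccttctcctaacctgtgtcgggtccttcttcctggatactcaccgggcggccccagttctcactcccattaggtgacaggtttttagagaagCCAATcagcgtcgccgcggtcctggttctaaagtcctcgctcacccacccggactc
B2M, chr15:44711267-44711516, plus strand: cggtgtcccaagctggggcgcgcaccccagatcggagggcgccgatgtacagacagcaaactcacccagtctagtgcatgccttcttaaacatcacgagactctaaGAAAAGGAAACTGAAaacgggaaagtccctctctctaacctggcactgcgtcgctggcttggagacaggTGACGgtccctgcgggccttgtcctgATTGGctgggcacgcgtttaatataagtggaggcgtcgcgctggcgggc
MICA, chr6:31403345-31403594, plus strand: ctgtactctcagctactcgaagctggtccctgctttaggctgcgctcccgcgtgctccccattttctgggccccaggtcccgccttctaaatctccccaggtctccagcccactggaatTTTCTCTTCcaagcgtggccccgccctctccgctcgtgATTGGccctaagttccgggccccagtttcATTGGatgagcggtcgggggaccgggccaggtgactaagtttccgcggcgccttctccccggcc
MICB, chr6:31497895-31498144, plus strand: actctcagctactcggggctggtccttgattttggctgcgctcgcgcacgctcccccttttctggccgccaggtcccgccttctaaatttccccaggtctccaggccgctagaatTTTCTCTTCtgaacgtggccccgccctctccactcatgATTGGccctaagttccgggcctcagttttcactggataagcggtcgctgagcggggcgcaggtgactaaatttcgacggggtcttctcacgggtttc

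HLA-B and HLA-C shared the arrangement of TGACG followed 25 bases later, start to start, by ATTGG, at −106 and −81 in HLA-B and at −105 and −80 in HLA-C. In B2M the same letters stood 26 bases apart, at −75 and −49. This spacing, chosen after the sequences were seen, occurred on either strand in 47 of 35116 RefSeq promoters (0.134%), against 21.2% for TGACG and 32.0% for CCAAT. HLA-F kept ATTGG at −82 and CCAAT at −57 but had no TGACG. HLA-G kept the CCAAT at −56 and had neither ATTGG nor TGACG in these bases, nor a match to either interferon pattern, which 12.4% of promoters hold. HLA-B, HLA-C, HLA-F, B2M, MICA and MICB each had an interferon pattern. Its 9 letters were the same in HLA-B and HLA-C and, in another sequence, the same in the marked MICA and the unmarked MICB. A match is a description of letters and not a bound site.

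In aligned upstream bases HLA-B and HLA-C were 89.0% identical, HLA-C and HLA-G 78.6%, and MICA and MICB 82.7%. HLA-E and NLRC5 are given by position only.

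The genes lie on 3 chromosomes. On chromosome 6 of GRCh38 the 5′ ends are at 29723434 for HLA-F, 29827825 for HLA-G, 30489509 for HLA-E, 31272092 for HLA-C, 31357179 for HLA-B, 31403595 for MICA and 31498145 for MICB. HLA-B and HLA-C are read from the minus strand and the others from the plus strand. B2M starts at 44711517 on chromosome 15 and NLRC5 at 56989557 on chromosome 16. Each 5′ end is the first base of exon 1, and the whole of exon 1 is between 61 bp (NLRC5) and 119 bp (MICB) long.

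Of these genes 7 lie in the MHC, where similar sequences recur, and the authors removed reads that mapped to several places. Reads were 150 bp long and paired. In the window of 6001 bp, the bases lying in an exact copy of at least 150 bp elsewhere on the chromosomes or unplaced contigs numbered 0 at HLA-B, HLA-C, HLA-E, HLA-F, HLA-G, B2M and NLRC5. At MICA and MICB 418 bp did so, between positions 1434 and 1852 of MICA and between 1769 and 2187 of MICB, counted from the 5′ end in the direction of transcription. With copies of at least 50 bp the numbers ranged from 246 bp (B2M) to 2055 bp (MICB), and were 1083 bp at HLA-C and 1233 bp at HLA-G. Copies shorter than 150 bp were counted only within alignments of at least 150 bp, so these numbers are lower bounds. U2OS cells carry HLA alleles of their own, and how well their reads mapped to the reference sequence was not tested.

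NLRC5, the transactivator, was marked in all 6 libraries. Covered length, the number of bp under peaks within the window of 6001 bp, was 6001, 6001 and 2558 bp in WT replicates 1, 2 and 3, and 2573, 2486 and 2456 bp in KO replicates 1, 2 and 3. The window was filled in WT replicates 1 and 2, and WT replicate 3 lay among the KO libraries, below KO replicate 1. In WT replicate 1 the peak ran from −4296 to 5532 bp around the 5′ end and in WT replicate 2 from −4362 to 4061 bp. In WT replicate 3 it ran from −1170 to 1387 bp, and in the KO libraries from −1395, −1173 and −1256 to 1177, 1312 and 1199 bp. All 6 lists shared the 2348 bp from −1170 to 1177.

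At NLRC5 the WT mean of 4853 ± 1988 bp and the KO mean of 2505 ± 60.8 bp (SD, n = 3) differed by 2348 bp, and the groups overlapped (two-sided exact permutation p = 0.2, adjusted p = 0.245 by the Benjamini-Hochberg method over 14422 covered promoters). With 3 libraries against 3 the smallest p possible is 0.1, which after adjustment was 0.196 for every promoter that reached it. No promoter could therefore pass 0.05, and 7346 reached the smallest p. WT replicate 3 was 15 bp shorter than the longest KO library at NLRC5 and 53 bp longer than the KO mean. Over the promoters covered in WT replicate 3 or a KO library, the median of WT replicate 3 minus the KO mean was 163 bp.

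CIITA, the class II counterpart, gave another picture in the same lists. It had 3471, 3318 and 2837 bp in WT and 0, 1275 and 0 bp in KO, and no KO peak lay within 1 kb of its 5′ end. The KO peak began at 1726 bp downstream. WT replicate 3 led the highest KO library by 1562 bp at CIITA, as compared with −15 bp at NLRC5, within the 4 narrower lists.

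**Figure D1:**
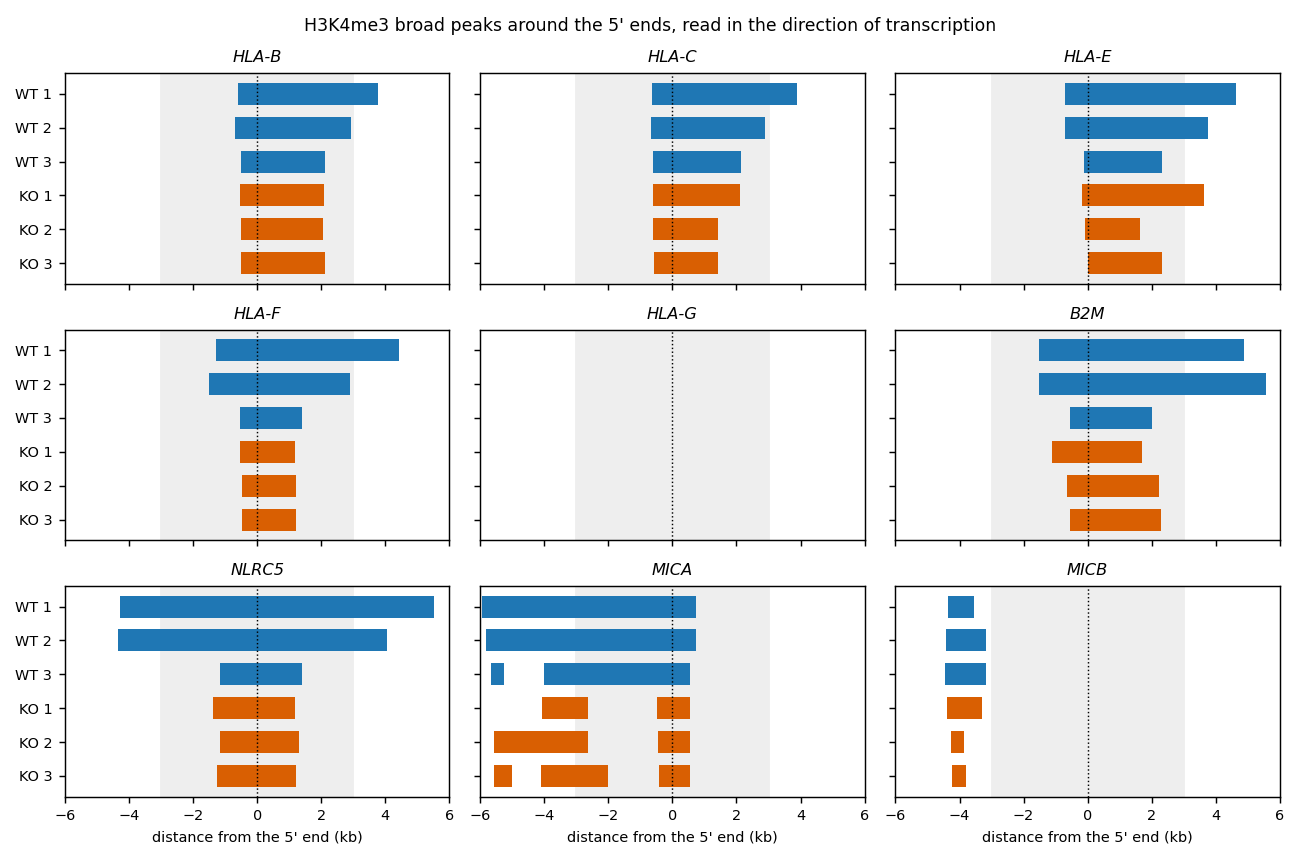
Broad H3K4me3 peaks of each library (WT blue, KO orange) within 6 kb of the 5′ end of the 9 genes, with distance in kb in the direction of transcription and peaks that run past 6 kb cut there; the grey band is the window of 3 kb on either side. NLRC5 peaks reached beyond the band in WT replicates 1 and 2 only, the MICA peak filled the upstream side of the band in the 3 WT libraries and was broken there in the 3 KO libraries, and HLA-G and MICB had no peak in the band.

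The classical heavy chain genes HLA-B and HLA-C, which present peptides to CD8 T cells and bind receptors of NK cells, were marked in all 6 libraries. HLA-B had 3595, 3627 and 2626 bp in WT and 2626, 2562 and 2617 bp in KO. WT replicates 1 and 2 were long, and the other 4 lists lay close together, with the same length in WT replicate 3 and KO replicate 1. The upstream edge of the HLA-B peak stayed between −704 and −501 in the 6 lists, while the downstream edge moved from 3759 and 2922 bp in WT replicates 1 and 2 to between 2042 and 2115 bp in the others. The mean difference was 681 bp (WT 3283 ± 569, KO 2602 ± 34.6, SD, n = 3, exact permutation p = 0.2, adjusted p = 0.245).

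HLA-C had 3652, 3567 and 2724 bp in WT and 2702, 2037 and 1985 bp in KO, so that all WT libraries lay above all KO libraries. The gap between the groups was 22 bp, between WT replicate 3 and KO replicate 1. The difference of means was 1073 bp (WT 3314 ± 513, KO 2241 ± 400, SD, n = 3, exact permutation p = 0.1, adjusted p = 0.196). Such a separation with WT above KO held at 50.8% of covered promoters, and that of KO above WT at 0.111%. As at HLA-B the upstream edge of the HLA-C peak stayed in place, between −662 and −566, and the downstream edge varied from 1418 bp in KO replicate 3 to 3879 bp in WT replicate 1. An unnamed long non-coding RNA starts at −148 of HLA-C, within the peak of all 6 lists.

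HLA-E, whose product shows leader peptides of other class I chains to NKG2A on NK cells, had 3706, 3706 and 2440 bp in WT and 3192, 1710 and 2308 bp in KO. The groups overlapped, with WT replicate 3 at −752 bp relative to KO replicate 1 (difference of means 881 bp, exact permutation p = 0.2, adjusted p = 0.245). The KO libraries differed among themselves more at HLA-E than at any other of the 9 genes (SD 746 bp). The mark lay mostly downstream: in WT replicate 3 and KO replicates 1 and 2 the upstream edge was at −122, −191 and −88, and in KO replicate 3 the peak began 7 bp into the gene, so the 5′ end itself lay outside it.

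HLA-F, a non-classical heavy chain gene, had 4286, 4405 and 1939 bp in WT and 1711, 1668 and 1667 bp in KO. All WT libraries lay above all KO libraries (difference of means 1861 bp, WT 3543 ± 1391, KO 1682 ± 25.1, SD, n = 3, exact permutation p = 0.1, adjusted p = 0.196). WT replicate 3 exceeded the highest KO library by 228 bp, which stood at the 86.8th percentile of that lead among 14281 promoters covered in these 4 lists. In all 4 the peak kept one shape, from between −552 and −466 to between 1171 and 1386 bp. The HLA-F peak was also the most enriched of the heavy chain peaks within 5 of the 6 lists, at the 76.9th, 86.3rd and 59.9th percentile of fold enrichment in WT and the 74.6th, 71.0th and 68.0th in KO, with HLA-E ahead in WT replicate 1.

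HLA-G, known for its expression in the placenta, had 0 bp in all 6 libraries. The nearest peaks lay between 34097 and 34543 bp upstream and between 21960 and 22237 bp downstream of its 5′ end. The window held 0 bp in exact copies of at least 150 bp and, as a lower bound, 114 bp in copies of at least 100 bp, with 0 and 114 bp at the marked HLA-E. The most similar long stretch elsewhere was 91.5% identical over 1317 bp for HLA-G and 84.7% over 1001 bp for HLA-E. Whether the removal of multimapping reads bears on the empty window was not tested. No library had a call at 30.3% of all promoters.

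B2M, which encodes the shared light chain, had 4519, 4521 and 2566 bp in WT and 2792, 2900 and 2834 bp in KO. WT replicates 1 and 2 were the longest and WT replicate 3 the shortest of the 6. The B2M means, 3869 ± 1128 bp in WT and 2842 ± 54.4 bp in KO (SD, n = 3), differed by 1027 bp (exact permutation p = 0.4, adjusted p = 0.431). Among the 4 narrower lists the order was reversed, with WT replicate 3 below all 3 KO libraries, as at 2.53% of promoters, and at −276 bp relative to their mean. The divergent gene PATL2 starts at −201 of B2M within the same peak, so the part of the mark that belongs to either gene cannot be told apart.

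**Figure D2:**
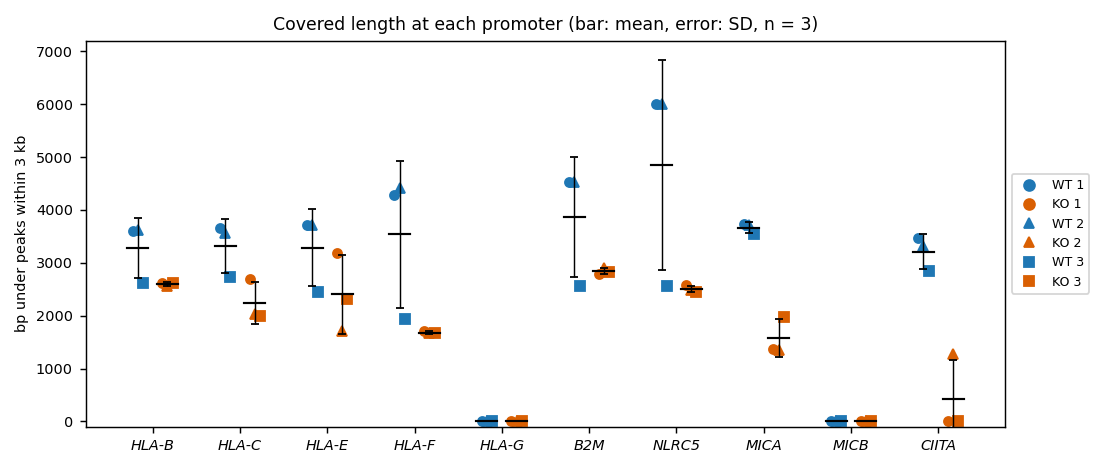
Covered length in bp within 3 kb of the 5′ end of the 9 genes and CIITA, each point a library (WT blue, KO orange, symbols by replicate number) with the mean as a bar and the SD as its error (n = 3). WT replicate 3 sits with the KO libraries at HLA-B, HLA-E, B2M and NLRC5 and with the other WT libraries at MICA and CIITA.

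MICA was marked at its 5′ end in all 6 libraries, and the mark upstream of it differed. Covered length was 3733, 3724 and 3543 bp in WT and 1377, 1355 and 1983 bp in KO. All 3 WT libraries exceeded all 3 KO libraries by at least 1560 bp, and WT replicate 3 lay with its group. The difference of means was 2095 bp (WT 3667 ± 107, KO 1572 ± 356, SD, n = 3), with the exact permutation p at its smallest value of 0.1 and an adjusted p of 0.196. A lead of WT replicate 3 over the 3 KO libraries at least as large as that of MICA was found at 46 of 14281 promoters (0.322%), whereas a lead of any size was found at 54.4%.

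In WT the MICA peak was unbroken from upstream positions −5932, −5811 and −4010 to 732, 723 and 542 bp downstream. WT replicate 3 had a further peak from −5670 to −5275. In KO the peak over the 5′ end and the nearest upstream peak were separate, and KO replicate 3 had a further peak from −5558 to −5023. The peak over the 5′ end ran from −481, −466 and −429 to 543, 535 and 560 bp. The nearest upstream peak ended at −2649, −2648 and −2008 bp. The stretch from −2007 to −482, 1526 bp long, was thus under a peak in all 3 WT libraries and in none of the KO libraries. Alternative 5′ ends of MICA are annotated at −3811 and between −2896 and −2846, with an unnamed long non-coding RNA at −2893, all under the upstream KO peak, and a Y RNA repeat gene is annotated at −1345 in the stretch left unmarked in KO.

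The 3001 bp that end at the 5′ end of MICA were covered whole in the 3 WT libraries, and 2167, 2181 and 1578 bp of them were uncovered in KO replicates 1, 2 and 3. Of the covered promoters 28 (0.194%) had this arrangement, an upstream window filled in all WT lists and broken in all KO lists with the 5′ end itself covered in all 6. At least as many bp covered in all WT and no KO libraries as at MICA were found at 21 promoters (0.146%). The criteria for these shares, and for that of the lead above, were taken from MICA itself after its values were seen. They describe how often such values occurred and test nothing. Within alignments of at least 150 bp, 291 bp of the stretch itself lay in exact copies of at least 50 bp elsewhere and 0 bp in copies of at least 100 bp. Copies in shorter alignments were not counted.

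The fold enrichment of the MICA peaks was read only within a list. In KO the peak over the 5′ end had an enrichment of 5.53, 5.25 and 4.88, at the 80.7th, 66.1st and 55.2nd percentile of its list, and the upstream peak 2.39, 2.22 and 2.22, at the 2.28th, 1.23rd and 1.04th percentile. The upstream KO peak was thus among the weakest of its list. In WT replicates 1, 2 and 3 the peak over the 5′ end, which also spanned the upstream sequence, had an enrichment of 17.2, 16.0 and 3.71, at the 60.3rd, 54.4th and 35.5th percentile. The value is an average over the length of a broad peak.

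MICB, 94.5 kb from MICA, had 0 bp within 3 kb of its MANE Select 5′ end in all 6 libraries. A peak lay just outside the window in all 6, over the start of the divergent transcript MICB-DT at −3825 in each list but that of KO replicate 2. It ran from −4357, −4428 and −4463 to −3555, −3185 and −3180 in WT and from −4398, −4277 and −4233 to −3290, −3847 and −3787 in KO. Its width was 803, 1244 and 1284 bp in WT and 1109, 431 and 447 bp in KO, with KO replicate 1 among the WT libraries. An alternative 5′ end of MICB annotated at −3264 lay under it in WT replicates 2 and 3 and in none of the other 4 lists.

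**Figure D3:**
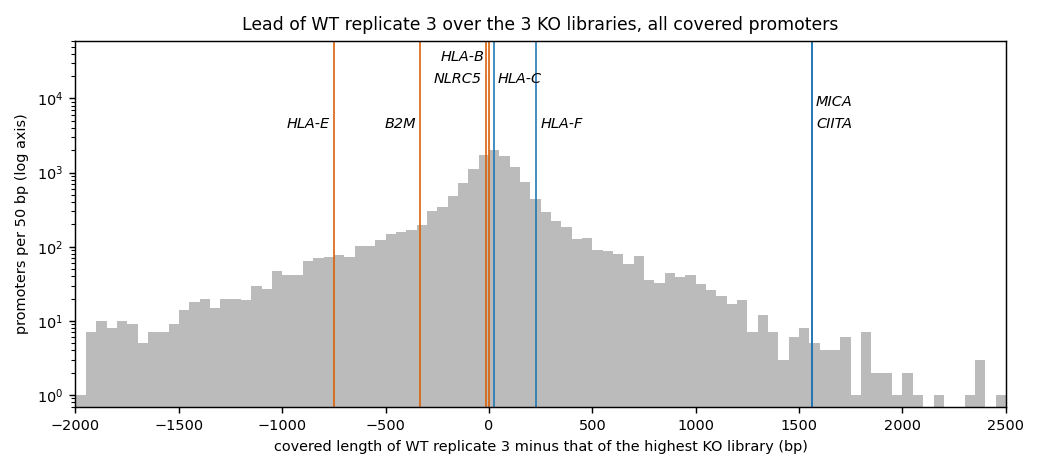
Number of promoters (log axis) by the covered length of WT replicate 3 minus that of the highest KO library in bp. The 14281 promoters counted were covered in at least 1 of these 4 libraries, and the marked members and CIITA are drawn as lines. MICA and CIITA stand at 1560 and 1562 bp, and the other 6 between −752 and 228 bp.

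To read covered length relative to its own list, it was expressed as breadth rank, the percentile among all covered promoters of the same library. The rank did not remove the difference between the kinds of list. WT replicates 1 and 2 stood well below WT replicate 3 at HLA-B, and above it at HLA-F (80.5 and 85.3 against 48.9). At HLA-B WT replicate 3 lay close below KO replicate 1. On this scale the groups of HLA-B and B2M separated with KO above WT. HLA-B stood at the 60.1, 64.3 and 82.8 percentile in WT and at 84.2, 88.0 and 91.7 in KO, and B2M at 85.5, 87.5 and 80.6 in WT and 88.3, 93.7 and 94.6 in KO. The difference of WT minus KO was −18.9 percentile points for HLA-B and −7.66 for B2M, each with an exact permutation p of 0.1 and an adjusted p of 0.56. Separation with KO above WT was found at 10.7% of covered promoters on this scale and with WT above KO at 7.13%.

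HLA-C and HLA-F, separated in bp, overlapped on the rank scale. HLA-C had 61.8, 62.4 and 85.4 in WT and 86.0, 67.8 and 70.7 in KO, a difference of −4.95 points, opposite in sign to that in bp (exact permutation p = 0.5, adjusted p = 0.794). HLA-F had 80.5, 85.3 and 48.9 in WT and 35.4, 43.8 and 50.9 in KO, a difference of 28.2 points (exact permutation p = 0.2, adjusted p = 0.622). HLA-E, with −6.08 points, also turned its sign (exact permutation p = 0.7, adjusted p = 0.906).

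MICA stood at 64.7, 67.5 and 96.3 in WT and 14.6, 22.6 and 70.6 in KO. KO replicate 3 lay above WT replicates 1 and 2 here, so the groups overlapped (difference 40.2 points, exact permutation p = 0.3, adjusted p = 0.681). Among the 4 narrower lists WT replicate 3, at 96.3, lay above all KO libraries. NLRC5 stood at 99.1, 99.3 and 80.4 in WT and 82.8, 86.0 and 88.8 in KO, a difference of 7.08 points (exact permutation p = 0.4, adjusted p = 0.718) with WT replicate 3 the lowest of the 6. CIITA stood at 56.2, 53.7 and 88.1 in WT and 0, 18.1 and 0 in KO, without overlap (exact permutation p = 0.1, adjusted p = 0.56).

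**Figure D4:**
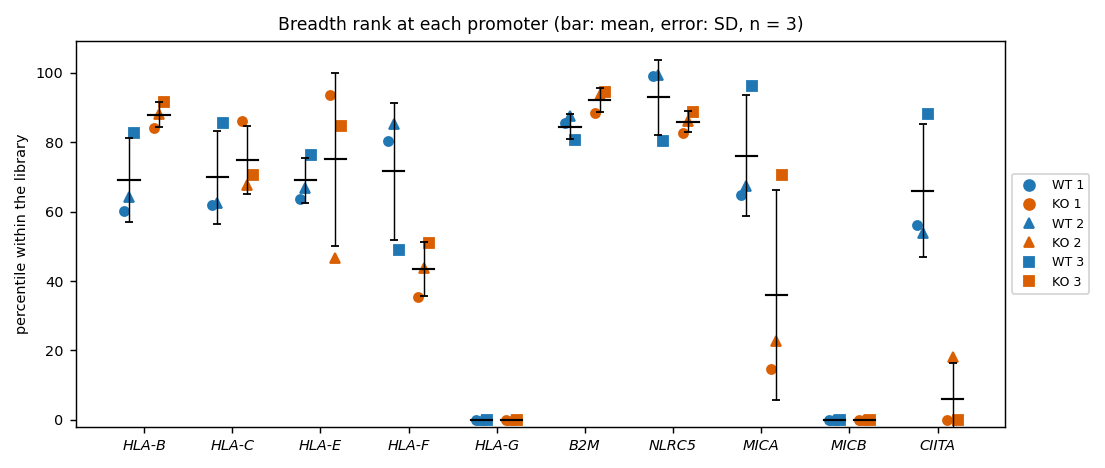
Breadth rank, the percentile of the covered length within its own library, for the 9 genes and CIITA (points are libraries, bar and error are mean and SD, n = 3; genes without a peak are drawn at 0). KO libraries lie above WT libraries at HLA-B and B2M, and at MICA KO replicate 3 reaches 70.6, above WT replicates 1 and 2.

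The 3 promoters whose breadth rank over the 6 libraries was nearest to that of NLRC5 were BAHD1, MYCBP2 and PRDX5, at Euclidean distances of 4.52, 5.08 and 5.43 percentile points. BAHD1 had 6001, 5750 and 2559 bp in WT and 2664, 2419 and 2336 bp in KO. These 3 promoters were chosen for their likeness to NLRC5, so the pattern they share with it tests nothing. Counted over all promoters, the window was filled at 245, 181 and 6 promoters in WT replicates 1, 2 and 3. In KO replicates 1, 2 and 3 it was filled at 19, 1 and 1.

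Fold enrichment ranked the 7 marked members differently in the different kinds of list. B2M was at the 92.2nd and 61.7th percentile in WT replicates 1 and 2, at the 13.0th in WT replicate 3 and at the 24.1st, 9.15th and 19.0th in KO. NLRC5 was at the 50.8th and 52.9th, then at the 8.41st, and at the 22.6th, 12.7th and 13.5th in KO. HLA-B kept its place, with values between the 46.0th and the 53.3rd percentile in all 6 lists, and HLA-C stayed between the 40.4th and the 52.6th.

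Of the 9 members 7 were called within 1 kb of the 5′ end in each of the 6 libraries, and none in WT only. A call in all 6 libraries was made at 65.1% of all promoters, and one in the 3 WT libraries and no KO library at 0.105%. Among 14 class II genes 1, HLA-DMB, was called in all 6, and 3 had a call in every WT library and no KO library. CIITA, outside that list, was of the latter kind. Covered in at least 1 library were 7 of the 9 members and 12 of the 14 class II genes. Over these the median difference of WT minus KO was 1073 bp for the members and 837 bp for the class II genes, and 965 bp for all covered promoters. All WT libraries lay above all KO libraries at 3 of 7 covered members (HLA-C, HLA-F and MICA) and at 8 of 12 covered class II genes, where the share of all covered promoters was 50.8%. WT replicate 3 alone lay above all KO libraries at 3 of 7 and at 10 of 12, against 54.4% of promoters covered in these 4 lists.

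On the rank scale 5 of 12 covered class II genes separated with WT above KO and none of the 7 covered members did, the share of covered promoters being 7.13%. The class II genes were HLA-DRA, HLA-DRB1, HLA-DMA, HLA-DMB and HLA-DOA, with differences of 48.0, 28.3, 19.1, 10.6 and 3.69 percentile points. The difference between the lists itself was not tested.

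**Figure D5:**
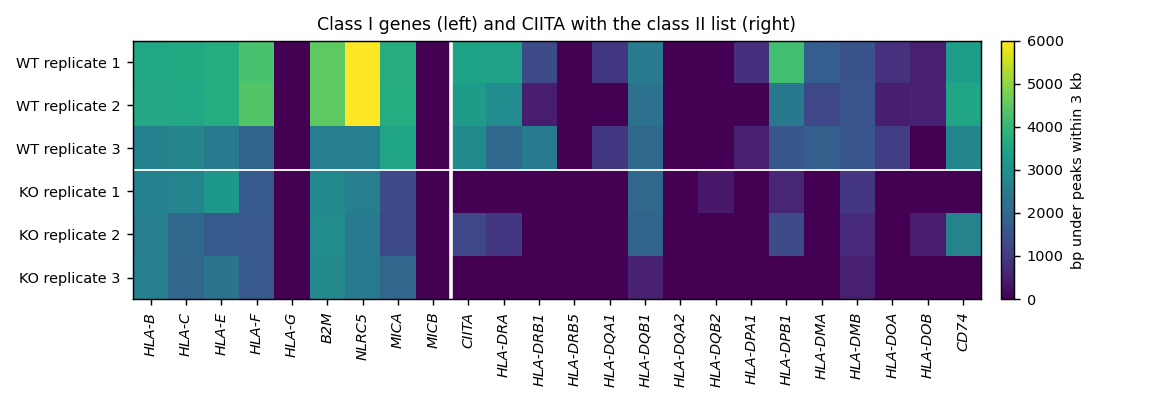
Covered length in bp (colour) in each of the 6 libraries for the 9 class I genes, left of the white line, and for CIITA and 14 class II genes to its right. The KO rows are filled at 7 of 9 class I genes, and among the class II genes HLA-DQB1 and HLA-DMB are covered in all 6 libraries.

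Other genes of the class I pathway were mostly marked in every library. Of 37 genes 30 were called in all 6 libraries and 5 in none, against 65.1% and 30.3% of all promoters. The transcription factors that meet NLRC5 or IFNγ signalling at these promoters (among them RFX5, RFXAP, RFXANK, CREB1 and IRF1) were called in 9 of 9 cases in all 6 libraries. So were 14 of 14 genes of peptide supply and loading, among them the transporter genes TAP1 and TAP2 and the immunoproteasome genes PSMB8, PSMB9 and PSMB10. Among 14 class I-like genes and NKG2D ligands 7 were called in all 6 and 5 in none (ULBP1, CD1A, CD1B, CD1C and CD1E).

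By covered length 11 of the 32 genes covered in at least 1 library separated with WT above KO and none with KO above WT, against 50.8% and 0.111% of covered promoters. The median difference over the 32 was 1024 bp. On the rank scale 5 separated with KO above WT, among them CALR, IRF1, FCGRT and ULBP2, and 1 with WT above KO, ULBP3, which was named after its values were seen. CALR, a chaperone of peptide loading, differed by −12.7 points and IRF1, a transcription factor of the interferon response, by −9.83 points, both in the direction of HLA-B and B2M. The share of covered promoters with this order was 10.7%.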

How the data were processed

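H3K4me3 ChIP-seq peak lists were available for 3 WT and 3 ZBTB48 KO U2OS clones, with genotype and replicate number taken from the labels. Per the study's methods and the submitters' processing notes, the authors trimmed 150 bp paired reads, aligned them to GRCh38 with Bowtie2 2.3.5.1, dropped reads that were unmapped, duplicated or mapped to several places, and called broad peaks per library with MACS2 2.1.1.2. The authors also compared WT and KO quantitatively with DiffBind 3.2.1, which needs reads and could not be repeated from the lists. Whether MACS2 ran with an input, and whether the index held alternate haplotypes, is not given in the sources used here. Dropping multimapping reads can lower the signal in near-identical sequence.

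In the deposited lists the score is a display value and was not used. The deposited fold enrichment, a ratio over local background, and the −log10 values of p and q that the authors deposited are averages over a broad peak and were read only within a list. Without counts the depth of each list is unknown beyond the range of reads in the study's methods, and a missing peak means not called.

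Promoters were the MANE Select or canonical 5′ ends of GENCODE release 44. Covered length within 3 kb, its rank within the library, and calls (1 bp within 1 kb) were computed in Python 3.11.15 with numpy 2.4.6. Lengths and ranks were compared by an exact permutation test (two-sided, 20 assignments), adjusted by the Benjamini-Hochberg method over 14422 covered promoters. Repeated sequence was found with BLAST on the reference without alternate haplotypes, keeping alignments of at least 150 bp. Named were the 9 members, CIITA, up to 5 genes of each list whose ranks did not overlap, in order of the difference, and the 3 nearest to NLRC5. Genes listed beyond these only state calls. Some genes of the lists are not reported singly here, while the counts include them. The members, lists and the comparison with WT replicate 3 were chosen with earlier results of these data known. The alternatives required −log10 q ≥ 3 or fold enrichment ≥ 4, or used equal peak numbers, other windows, overlaps, gaps, 5′ ends and scales, a replicate block, and leaving out each library.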

Additional observations from a re-analysis of the deposited data

How the results depend on the processing

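The summaries over the members, the number with all WT above all KO (3), with all KO above all WT (0), called in every library (7), and the median difference (1027 bp), were recomputed under 17 alternatives. Keeping only peaks with a fold enrichment of at least 4 left 1 member (HLA-F) with WT above KO, against 31.7% of promoters, and 2 (HLA-B and HLA-F) called in every library, against 36.4%, the peaks of HLA-C, HLA-E, B2M, NLRC5 and MICA in WT replicate 3 lying under that value. Dividing by the library's median covered length left 0 members with WT above KO and 2 with KO above WT (HLA-B and B2M), and breadth rank likewise left 0 and 2, with medians over the 9 members, 2 of them without a peak, of 0 on both scales. HLA-F and MICA kept WT above KO in the mean on both scales while their groups overlapped, and HLA-C did not. In the window of 1 kb the median difference was 89.7 bp, HLA-C lost its separation (48.3 bp), MICA kept it at 661 bp, and NLRC5, whose window was filled in all 6 libraries, gave 0 bp. WT replicate 3 alone beside the KO libraries gave a median of 36.7 bp over the 9 members, with HLA-C, HLA-F and MICA above all 3 and 1 member (B2M) below. For all promoters covered in these libraries the median was 163 bp.

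The counts of members with WT above KO ranged from 3 to 7 when each library was left out, with 7 of 7 marked members separated without WT replicate 3 (90.9% of promoters) and 6 without KO replicate 1 (80.2%). MICA, HLA-C and HLA-F were separated in each of these 6 cases. The median difference then ranged from 700.5 to 1368 bp, and the other counts stayed at 7 and 0. With the most upstream 5′ end in use, MICB was called in every library, 8 members in all.

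Single members changed sign as follows. HLA-B gave −49.0 bp at its most upstream 5′ end. Relative to the library median the differences were −0.282 for HLA-B, −0.0517 for HLA-C, −0.168 for HLA-E and −0.242 for B2M, and on the rank scale −18.9, −4.95, −6.08 and −7.66 points. B2M gave −276 bp for WT replicate 3 against KO. The cause of these changes was not tested. Of 119 values for the 7 marked members 91 kept direction and call, 7 lost the separation, 10 gained it, 10 changed sign and 1 was 0.

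Replicate numbers are shared between WT and KO in the labels. With the replicate number as a block, 6 members had WT above KO in all 3 same-numbered pairs, as had 85.6% of promoters, and the median was unchanged at 1027 bp. Deviations of same-numbered libraries from their group means over 14422 promoters correlated by −0.00952, 0.0171 and 0.0932. Those of differently numbered libraries ranged from −0.118 to 0.0787. The WT deviations also carry the difference in kind between WT replicate 3 and the other WT lists, so these values cannot decide on pairing. The study's methods name no pairing, and the numbers were not taken to pair the clones.

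Peak lists limit what can be shown. Whether depth or enrichment moved the edges was not tested, and for WT replicates 1 and 2 the kind of list and the clone cannot be told apart. The level of the mark within a peak called in all 6 libraries was not compared here.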
